A study of Mus musculus with 4 samples.

Results

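The genes described here make or feed inducible nitric oxide synthesis. A set of 7 of the 31053 genes in the count matrices was picked by name for their roles and not from a threshold on their counts, and 5 of them are described, Nos2, Ass1, Asl, Gch1 and Slc7a2. Islets of Langerhans from C57BL/6 mice (C57BL6/J in the study's methods) were pooled from several male animals. They were cultured untreated or with IFN-γ, IL-1β or both cytokines for 6 h, and were then dissociated for droplet-based single-cell RNA sequencing. The labels give no time for the untreated islets. Every condition is a single library. Differences between conditions are therefore differences between libraries, without replicates and without a test. After filtering (200 to 4000 genes and no more than 12% mitochondrial UMIs, where a UMI is a unique molecular identifier that marks 1 captured transcript), 1521 untreated cells, 2122 cells with IFN-γ, 2018 with IL-1β and 1810 with the combination remained. Their median depths were 15454, 9615, 7462.5 and 11123.5 UMIs per cell, respectively, and 4 barcodes of the kept cells occurred in more than 1 library.

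Inducible nitric oxide synthase (iNOS), the product of Nos2, converts arginine to citrulline and nitric oxide and needs tetrahydrobiopterin as a cofactor. GTP cyclohydrolase, encoded by Gch1, catalyzes the rate-limiting step of tetrahydrobiopterin synthesis. Argininosuccinate synthase (Ass1) and argininosuccinate lyase (Asl) return citrulline to arginine, and the transporter encoded by Slc7a2 (CAT2) takes up arginine and other cationic amino acids. In rodent islets, Nos2 is well known as an IL-1-responsive gene of β-cells.

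Cells were grouped by the hormone that took most of their UMIs, which gave 5126 β-like, 918 α-like, 377 δ-like and 192 Ppy-led cells. A further 266 cells held hormones of several types and were kept apart as mixed. Cells low in hormones were named from marker genes, and these included 131 endothelial-like, 132 macrophage-like and 93 mesenchymal-like cells. Marker genes that the hormone rule did not use were compared between the classes. Nkx6-1 was at 164 UMIs per 1000000 (CPM) in β-like cells and 16.7 CPM in α-like cells, Irx2 at 158 CPM in α-like and 3.10 CPM in β-like cells, and Hhex at 196 CPM in δ-like and 0.844 CPM in β-like cells. Hhex was also at 168 CPM in ductal-like cells, and Pdx1, a further marker of β-cells, was at 87.1 CPM in β-like but 102 CPM in δ-like cells. When all cells were clustered without the members, the endocrine cells also parted by library. Of the β-like clusters, 1014 of 1099 cells in the first were untreated, 1044 of 1072 in another came from IFN-γ, 925 of 1022 from IL-1β and 1011 of 1051 from the combination, while a further cluster of 653 cells held 112 to 221 of each library. The smallest β-like cluster held 36 cells, all of the combination. A cluster of 404 α-like cells held 88 untreated cells and 304 with IFN-γ, and another of 637 held 397 with IL-1β and 227 with the combination. The δ-like clusters parted in the same way, with 67 untreated cells and 182 with IFN-γ of 262 and with 230 and 162 of 412 in the libraries with IL-1β. Ppy-led cells rest on 2 markers and are named only by their leading hormone. All levels below are the summed UMIs of a class in CPM with exact Poisson 95% intervals, and all intervals cover counting error only. Since 1 transcript end gives 1 UMI, no length scaling applies. Fewer cells with a transcript and fewer transcripts per cell both lower such a sum, and shares of cells are given beside it where the results turn on them.

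In the GENCODE M21 annotation of GRCm38, Nos2 (ENSMUSG00000020826) lies on the plus strand of chromosome 11 from 78920787 to 78960254, and Gch1 (ENSMUSG00000037580) on the minus strand of chromosome 14 from 47153895 to 47189413. Slc7a2 (ENSMUSG00000031596) is at 40862396 to 40922308 on the plus strand of chromosome 8. Ass1 (ENSMUSG00000076441) spans 31470207 to 31520672 on the plus strand of chromosome 2, and Asl (ENSMUSG00000025533) spans 130011258 to 130029247 on the minus strand of chromosome 5. Slc7a2 overlaps the counted gene Gm26584 on the opposite strand. Levels of Slc7a2 therefore assume that reads were counted by strand.

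Gch1 was abundant without any cytokine, whereas Nos2, whose enzyme needs the product of the Gch1 pathway, was nearly absent. Of these genes, the promoter of Gch1 is shown, from the RefSeq table for GRCm38.p6. That table held no promoter of Nos2, so the promoters of the 2 genes cannot be compared. The 150 bases before the start of Gch1 lie on the minus strand at chr14:47189414-47189563. Capitals mark GGG and CC with 5 bases of any kind between them (the outline of many κB sites), TGACG (part of a cAMP response element) and CCAAT, each searched on both strands.
Gch1: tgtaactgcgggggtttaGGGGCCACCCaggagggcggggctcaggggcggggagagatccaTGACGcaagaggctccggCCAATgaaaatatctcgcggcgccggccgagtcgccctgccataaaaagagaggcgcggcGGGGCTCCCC
Over the 250 bases before the start of 32807 promoters, the κB outline was found in 45.8%, TGACG in 17.8% and CCAAT in 33.8%, so that none of these matches is rare. TTC and GAA with 3 bases between them, the outline of interferon-γ-activated sites, occurred in 7.02% of promoters. A pair of GAAA with 2 bases between them, as in IRF sites, occurred in 2.97%. Neither was in the 250 bases before Gch1, where another κB outline lay upstream of the bases shown. These are matches of letters and not measured binding.

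In β-like cells, Nos2 was almost absent without treatment, high with IL-1β and highest with both cytokines. It was at 0.0496 CPM (0.00125 to 0.276, 1 UMI in 1216 cells) without cytokine, 2.46 CPM (1.72 to 3.40) with IFN-γ, 133 CPM (126 to 140.3) with IL-1β and, with the combination, 635 CPM (623 to 647). None of these 4 intervals overlap. The IL-1β library was 2687-fold (481 to 106210) above the untreated library, a ratio that rests on a single untreated UMI and was 607 with cells thinned to 4000 UMIs and 5437 without the upper gene limit. The combination was 4.77-fold (4.51 to 5.04) above IL-1β alone. Of the 36 UMIs with IFN-γ alone, 21 came from 1 of the 8 cells that had any.

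The share of cells with a transcript followed the same order. With each cell thinned to 4000 UMIs, Nos2 was found in 22.1% (19.7 to 24.6) of the 1155 β-like cells with IL-1β and 59.7% (57.0 to 62.4) of 1283 with both cytokines. It was in 0.235% (0.0485 to 0.685) of 1277 with IFN-γ. Without thinning, the shares were 28.4% with IL-1β and 70.9% with both, at median depths of 8361 and 12210 UMIs. Cells with 5 or more Nos2 UMIs made up 2.68% of the thinned β-like cells with IL-1β and 20.2% with both. The 10% of cells with the most Nos2 held 74.4% of its UMIs with IL-1β and 42.1% with both. Both the share of cells with Nos2 and the number of UMIs per cell were thus higher with the combination.

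Nos2 was also high in δ-like and α-like cells with IL-1β and highest with the combination. In δ-like cells it was at 0 UMIs without cytokine and with IFN-γ, 113 CPM (88.1 to 144) with IL-1β and, with the combination, 521 CPM (459 to 589). In α-like cells it was at 0 UMIs without cytokine, 3.72 CPM with IFN-γ (9 UMIs, all of 1 cell), 30.7 CPM (24.1 to 38.5) with IL-1β and, with the combination, 173.5 CPM (154 to 195). Against a floor of 3 UMIs in the untreated class, the combination was at least 66.9-fold higher in δ-like and at least 52.5-fold higher in α-like cells. With IL-1β and with the combination, the levels in α-like cells lay below those in β-like and δ-like cells. Per 1000000 of all UMIs, the intervals of β-like and δ-like cells overlapped with IL-1β but not with the combination. Hormones took 21.8% of the UMIs of β-like and 9.66% of those of δ-like cells with IL-1β. Leaving hormone UMIs out would therefore raise the β-like level more than the δ-like level. Whether the intervals with IL-1β would still overlap on that scale was not tested.

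The step from IL-1β to the combination was of like size in the endocrine classes. It was 4.77-fold in β-like, 5.65-fold (4.36 to 7.40) in α-like, 4.59-fold (3.50 to 6.10) in δ-like and 4.75-fold (3.09 to 7.65) in Ppy-led cells, where Nos2 was at 85.4 CPM with IL-1β and 406 CPM with the combination. In Ppy-led cells with IL-1β, 14 of the 23 UMIs were in 1 cell. A difference between these steps was not detectable at this depth. At 4000 UMIs per cell, Nos2 was found with the combination in 53.2% (40.1 to 66.0) of 62 δ-like and 27.1% (20.5 to 34.4) of 170 α-like cells.

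Free RNA from lysed β-cells can put UMIs into other droplets, and the insulin transcripts in the other classes measure it. At the ratio of Nos2 to insulin UMIs in β-like cells, 1.33 Nos2 UMIs would be expected in δ-like cells of the combination, where 252 were counted. In α-like cells 4.24 would be expected against 274 counted, and in Ppy-led cells 2.23 against 222. As a background, acinar-like cells had 0 Nos2 UMIs in 11 cells with the combination, at a median of 2059 UMIs per cell, which allows up to 27.3% of cells with a UMI. Free RNA would give 0.123 UMIs there, so that these cells are too few and too shallow to measure it. Here and below, such limits are for cells with a captured UMI and not for cells that express the gene.

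**Figure D1:**
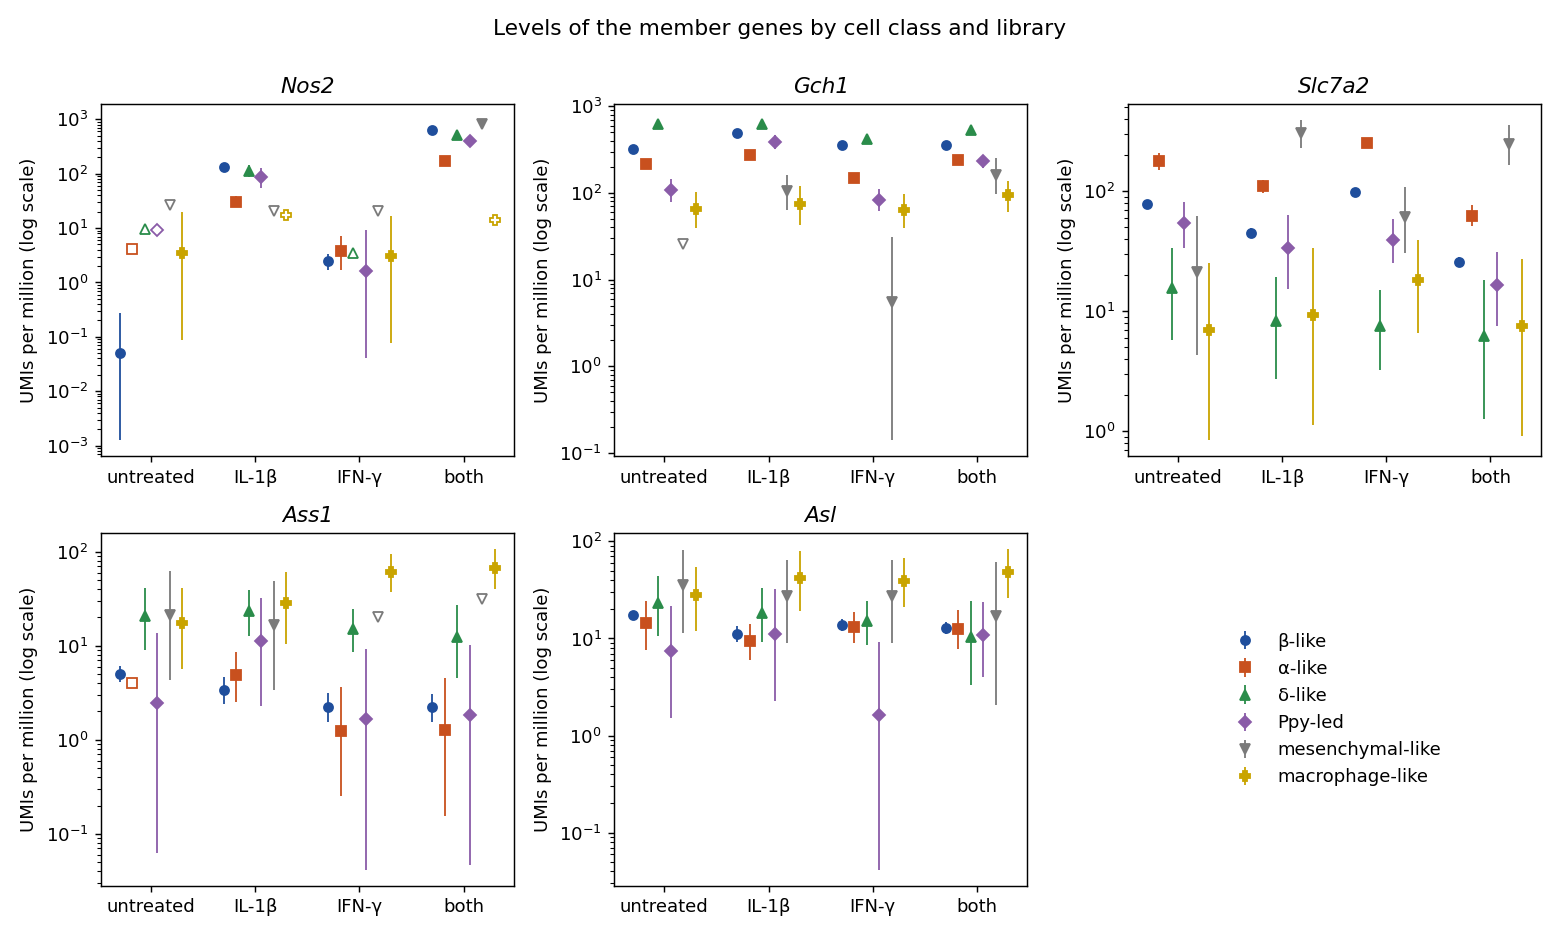
Levels of 5 genes in UMIs per 1000000 (log scale) in the 4 libraries, by cell class, with exact Poisson 95% intervals; open symbols mark classes with 0 UMIs and stand at the upper end of the interval. Nos2 was at 133 CPM with IL-1β and 635 CPM with both in β-like cells, and Slc7a2 in α-like cells was at 177 CPM in the untreated library and 62.7 CPM with both.

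Outside the endocrine cells, Nos2 was also seen in mesenchymal-like cells of the combination. It was at 0 UMIs in 19 untreated cells, 23 cells with IFN-γ and 31 cells with IL-1β, and at 806 CPM (651 to 986, 94 UMIs) in the 20 cells of the combination. Of these UMIs, 54 were in 1 cell and 40 in the other 7 cells that had any, and the level without that cell was 374 CPM (267 to 509). Free RNA at the insulin content of these cells would give 0.259 UMIs. With IL-1β alone the 0 UMIs in 31 cells, at a median of 4283 UMIs, allow up to 9.68% of cells with a UMI. In α-like cells, at a median of 6509 UMIs, the share was 10.3%. The 9.68% is the limit used for a count of 0 and not the exact interval used for other shares. The mesenchymal-like cells were also shallower, so a share below that of α-like cells was not shown.

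Smaller counts were found in other classes of the combination. Endothelial-like cells had 21 Nos2 UMIs in 4 of 22 cells, 13 of them in 1 cell. Of the 22 cells, 11 lay in a cluster led by Flt1 but also by Mgp, Igfbp5, Igfbp7 and Sparc, which led the mesenchymal-like cluster too. Another 11 shared a cluster with 36 cells of IFN-γ, 1 of IL-1β and 0 untreated. A further endothelial-like cluster held 26 untreated cells and 28 with IL-1β, so that the class lay in different clusters by library. Ductal-like cells had 16 Nos2 UMIs in 6 of 11 cells. Schwann-like cells had 27 UMIs in 2 of 3 cells (577 CPM, 380.2 to 839.5). Macrophages are a classic source of iNOS, but macrophage-like cells had 1, 1, 0 and 0 Nos2 UMIs without cytokine, with IFN-γ, with IL-1β and with the combination (25, 39, 38 and 30 cells). For the combination this allows up to 10.0% of cells with a UMI, at a median depth of 9421.5 UMIs.

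**Figure D2:**
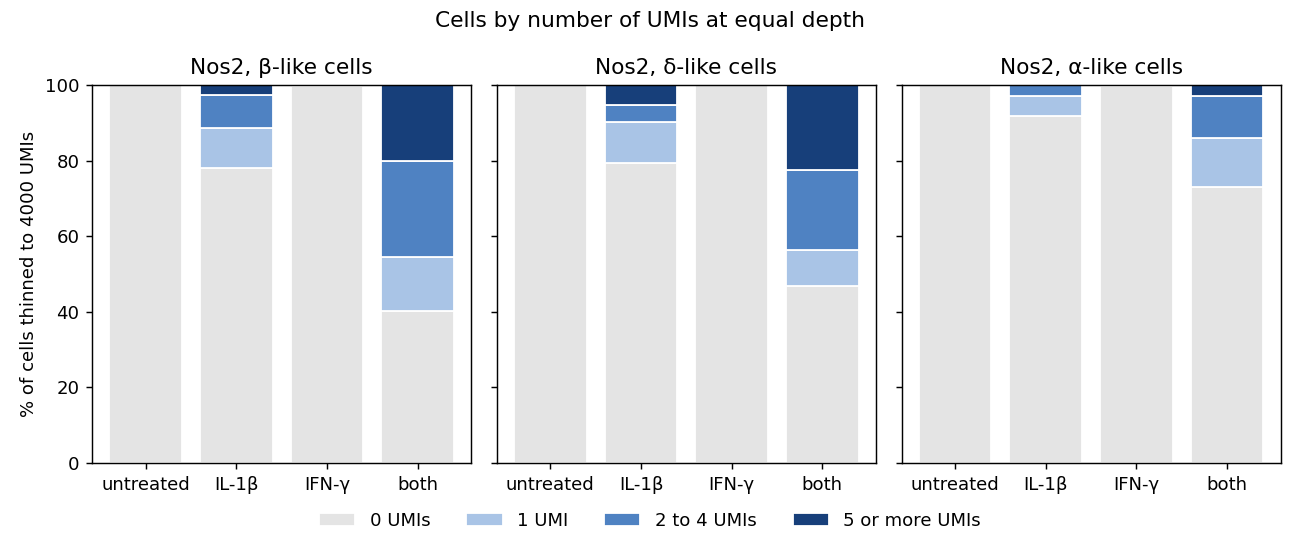
Share of cells (%, bars stacked to 100) with 0, 1, 2 to 4 and 5 or more UMIs of Nos2 in β-like, δ-like and α-like cells, after each cell was thinned to 4000 UMIs. Cells with 5 or more Nos2 UMIs made up 20.2% of β-like, 22.6% of δ-like and 2.94% of α-like cells with both cytokines.

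To place the members among all genes, each gene with 30 or more UMIs in a pair of libraries was compared, and 2-fold was the limit for calling a difference. In β-like cells the 5 described members were all measured. With IL-1β against untreated, 1 of 5 was past 2-fold higher (Nos2) and 0 were lower, against 17.1% of 11740 genes higher and 6.0% lower. With hormone genes left out of the totals, Asl and Slc7a2 were also past 2-fold lower, at 0.478-fold and 0.425-fold, so that 1 of 5 was higher and 2 lower, against 8.02% and 12% of genes. With IFN-γ, Nos2 was higher and Ass1 lower, against 5.84% and 0.651% of genes. This Nos2 call rests on 36 UMIs against 1, and 21 of the 36 were in 1 cell. Without that cell 15 would remain, and the pair would fall under the limit of 30 UMIs on either scale. With the combination, Nos2 was higher and Ass1 and Slc7a2 lower, against 11.6% and 12% of genes. On the scale without hormone genes, the members called against untreated with IFN-γ (beside 3.26% of genes higher and 1.81% lower) and with the combination (beside 9.31% and 16.4%) were the same. Between the combination and IL-1β alone, Nos2 was higher and no member lower, against 2.71% and 8.1% of genes. Between the combination and IFN-γ alone, Nos2 was higher and Slc7a2 lower, against 6.04% and 15.3%.

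In α-like cells with IL-1β, Nos2 was higher and no member lower of 4 measured, against 8.94% and 7.57% of genes, and with IFN-γ 0 of 3 were past 2-fold, against 5.59% and 1.42%. With the combination, Nos2 was higher and Slc7a2 lower of 4, against 10.1% and 10.7% of genes. Set against IL-1β alone, Nos2 was higher and no member lower, against 3.75% and 5.34%, and set against IFN-γ alone, Nos2 was higher and Slc7a2 lower, against 5.75% and 14.9%. In δ-like cells 2 members were measured, and Nos2 was higher and no member lower with IL-1β, against 10.9% and 6.51% of genes, and with the combination, against 13.0% and 10.7%. With IFN-γ, 0 of 1 measured member was past 2-fold, against 5.34% and 2.3%. The combination had higher Nos2 and no lower member against IL-1β alone, beside 5.96% and 8.13% of genes, and against IFN-γ alone, beside 8.37% and 13.0%.

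The scale of these ratios moves with the hormones, which took 42.1% of the UMIs of untreated β-like cells, 28.2% with IFN-γ, 21.8% with IL-1β and 33.3% with the combination. The median log2 ratio over all measured genes in β-like cells was 0.31 with IFN-γ, 0.36 with IL-1β and 0.01 with the combination against untreated, and −0.34 for the combination against IL-1β. With hormone genes left out of the totals, these medians were 0.00, −0.07, −0.19 and −0.11. Of the genes past 2-fold against untreated, the share that was higher went from 90.0% to 64.3% with IFN-γ, from 74.0% to 40.0% with IL-1β and from 49.2% to 36.3% with the combination. For the combination against IL-1β it went from 25.1% to 50.2%. With median-of-ratios size factors, the share for the combination went from 48.7% to 64.3% against untreated, from 41.2% to 55.2% against IL-1β and from 27.8% to 43.3% against IFN-γ in α-like cells, from 42.3% to 59.8% against IL-1β in δ-like cells and from 28.3% to 49.1% against IFN-γ in β-like cells. In α-like cells with IFN-γ it went from 79.7% to 68.6% without hormone genes. Where the text gives a log2 difference relative to the median gene, this median was subtracted.

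Gch1 was abundant in untreated endocrine cells and differed little between libraries in comparison with Nos2. Its level in β-like cells was 322 CPM (314 to 330.1) without cytokine, 358 CPM (348 to 368) with IFN-γ, 498 CPM (485 to 512) with IL-1β and, with the combination, 354 CPM (345 to 364). IL-1β was above the other libraries, with a ratio of 1.55 (1.49 to 1.60) to untreated, and the combination was 0.711-fold (0.684 to 0.738) of IL-1β. Relative to the median gene these log2 differences were 0.27 and −0.16. At 4000 UMIs per cell, Gch1 was found in 70.0% of untreated β-like cells and 83.4% with IL-1β. Thinning evens out all UMIs, of which hormones took 42.1% and 21.8% in these cells. With hormone UMIs left out of the totals, Gch1 was at 556 CPM (543 to 569.9) and 637 CPM (620.1 to 655). As a background, it was in 0 of 19 untreated mesenchymal-like cells (up to 15.8% of cells with a UMI allowed), at a median of 7070 UMIs against 16931 in untreated β-like cells.

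In δ-like cells the level of Gch1 per 1000000 of all UMIs was above that of β-like cells in the 4 libraries, but with IFN-γ the order turned with the scaling. Its level was 618 CPM (542 to 702) without cytokine, 420.4 CPM (382 to 461) with IFN-γ, 632 CPM (570.0 to 699) with IL-1β and, with the combination, 539.5 CPM (476 to 609). With hormone UMIs left out of the totals, the level with IFN-γ was 481 CPM (437 to 528) in δ-like and 498 CPM (485 to 512) in β-like cells, and untreated δ-like cells were at 714 CPM (626 to 810.4) against 556 CPM (543 to 569.9). With IL-1β the levels on that scale were 700 CPM (631 to 774) in δ-like and 637 CPM (620.1 to 655) in β-like cells, and with the combination 607 CPM (536 to 685) and 531 CPM (517 to 545). The intervals of these last pairs overlapped, as did those with IFN-γ. α-like cells had 217, 147, 272 and 239 CPM in the same order of libraries on the first scale. With IFN-γ alone, Gch1 was lower than untreated in both classes, with ratios of 0.678 (0.568 to 0.810) in α-like and 0.680 (0.580 to 0.7995) in δ-like cells, or −0.66 and −0.55 in log2 relative to the median gene. In β-like cells the ratio was 1.11 (1.07 to 1.15), or −0.16 in log2 relative to the median gene, so that its direction turned with the scaling. It was 0.896 (0.864 to 0.929) with hormone genes left out of the totals.

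Ppy-led and mesenchymal-like cells had larger differences of Gch1. Its level in Ppy-led cells was 108 CPM (78.6 to 145) without cytokine, 83.9 CPM (62.5 to 110.3) with IFN-γ, 389.8 CPM (319 to 472) with IL-1β and, with the combination, 234 CPM (195 to 278). IL-1β was 3.60-fold (2.51 to 5.25) above untreated. Mesenchymal-like cells had 0 Gch1 UMIs without cytokine, 1 with IFN-γ, 19 with IL-1β (105 CPM, 63.0 to 163) and 19 with the combination (163 CPM, 98.1 to 254). In the combination 13 of these 20 cells had Gch1 and 8 had Nos2.

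The arginine transporter gene Slc7a2 was lower in the libraries with IL-1β. Its level in β-like cells was 78.6 CPM (74.8 to 82.6) without cytokine, 98.3 CPM (93.3 to 103) with IFN-γ, 45.2 CPM (41.2 to 49.4) with IL-1β and, with the combination, 25.8 CPM (23.4 to 28.4). In α-like cells, where it was higher, the levels were 177 CPM (151 to 207), 252 CPM (233 to 273), 110.1 CPM (97.3 to 124) and 62.7 CPM (50.9 to 76.3). The order of the 4 libraries was the same in both classes and no intervals overlapped. Between the combination and untreated, the ratio was 0.328 (0.294 to 0.366) in β-like and 0.353 (0.272 to 0.457) in α-like cells. In log2 relative to the median gene these were −1.62 and −1.39. With IL-1β alone, the β-like ratio of 0.575 was within 2-fold but lower by more than 2-fold relative to the median gene, at −1.16 in log2.

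The addition of IFN-γ to IL-1β went with less Slc7a2, while IFN-γ alone went with more. The combination was 0.571-fold (0.499 to 0.652) of IL-1β in β-like and 0.570-fold (0.448 to 0.720) in α-like cells. The α-like ratio was past 2-fold lower, at 0.425 (0.289 to 0.6099), with thinned cells and at 0.487 with classes from clusters. With IFN-γ alone the ratio to untreated was 1.25 (1.16 to 1.34) in β-like and 1.42 (1.19 to 1.70) in α-like cells, or 0.01 and 0.41 in log2 relative to the median gene. The β-like ratio was thus that of the median gene. δ-like cells had only 3 to 8 Slc7a2 UMIs per library. In Ppy-led cells Slc7a2 was at 54.1 CPM without cytokine and 39.5 CPM with IFN-γ, a ratio of 0.730 (0.392 to 1.37).

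Mesenchymal-like cells went the other way. They had 3 Slc7a2 UMIs (21.2 CPM, 4.37 to 61.9) without cytokine, 11 (60.9 CPM, 30.4 to 109) with IFN-γ, 55 (303 CPM, 228 to 394) with IL-1β. The combination had 29 (249 CPM, 166 to 357). The IL-1β library was 14.3-fold (4.64 to 71.4) above untreated, from 12 of 31 cells of which none had more than 11 UMIs. In the combination, 17 of the 29 UMIs were in 1 cell.

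**Figure D3:**
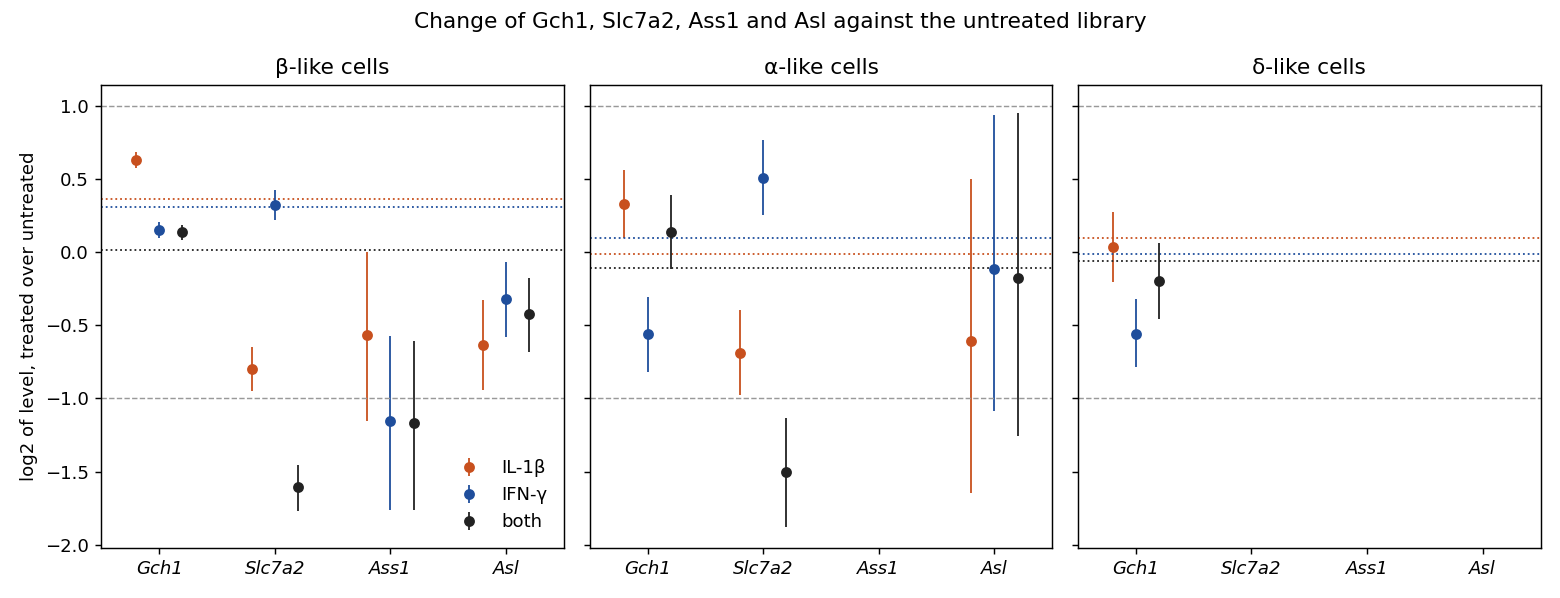
log2 ratio of the level in each treated library to the untreated library for members with 30 or more UMIs in the pair, in β-like, α-like and δ-like cells, with exact 95% intervals; dashed lines mark 2-fold and dotted lines the median of all measured genes in that comparison. Slc7a2 had a ratio of 0.328 in β-like and 0.353 in α-like cells with both, and Gch1 stayed within 2-fold in each class.

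The citrulline-recycling genes were low in endocrine cells, and in β-like cells their levels with IL-1β and with the combination were below untreated. Ass1 in β-like cells was at 5.01 CPM (4.08 to 6.08) without cytokine, 2.25 CPM (1.55 to 3.16) with IFN-γ, 3.39 CPM (2.37 to 4.69) with IL-1β and, with the combination, 2.23 CPM (1.56 to 3.08). The treated libraries overlapped each other, and IL-1β also overlapped untreated. The ratio to untreated was 0.450 (0.294 to 0.673) with IFN-γ and 0.445 (0.295 to 0.656) with the combination, from 33 and 36 against 101 UMIs. Relative to the median gene, the log2 difference was −1.46 with IFN-γ, −0.92 with IL-1β and −1.18 with the combination. In α-like cells Ass1 had 0 UMIs without cytokine, 3 with IFN-γ, 12 with IL-1β and 2 with the combination, and IL-1β was at least 1.49-fold higher against the floor of 3 UMIs. In δ-like cells, with 8 untreated UMIs, the ratio was 1.12 (0.440 to 3.09) for IL-1β, and Ppy-led cells had 1 to 3 UMIs per library.

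Asl in β-like cells was at 17.3 CPM (15.6 to 19.3) without cytokine, 13.9 CPM (12.02 to 15.9) with IFN-γ, 11.2 CPM (9.28 to 13.4) with IL-1β and, with the combination, 12.9 CPM (11.2 to 14.8). The treated libraries overlapped each other, and untreated overlapped IFN-γ. The ratios to untreated were within 2-fold, at 0.799 (0.669 to 0.953), 0.646 (0.520 to 0.797) and 0.745 (0.625 to 0.887). Relative to the median gene, the log2 difference was −0.63 with IFN-γ, −0.99 with IL-1β and −0.44 with the combination.

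In macrophage-like cells, Ass1 was higher in the libraries with IFN-γ. It was at 17.4 CPM (5.66 to 40.7) without cytokine, 60.5 CPM (36.9 to 93.4) with IFN-γ, 28.1 CPM (10.3 to 61.2) with IL-1β and, with the combination, 67.4 CPM (40.0 to 107). The intervals overlapped, from 5, 20, 6 and 18 UMIs. Those of the ratios to untreated lay above 1, at 3.47 (1.26 to 11.8) with IFN-γ and 3.87 (1.39 to 13.3) with the combination, but both rest on fewer than 30 UMIs. The class also lay in different clusters by library, of which the first held 25 untreated cells, 4 with IFN-γ, 37 with IL-1β and 3 with the combination, and the other 0, 35, 1 and 27. Asl in the same cells had 8 to 13 UMIs per library, with overlapping intervals.

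Within a library, cells with and without a Nos2 UMI were compared for the other members at 4000 UMIs per cell. In the combination 766 β-like cells had Nos2 and 517 did not. Gch1 was at 1.47 UMIs per cell beside Nos2 and 1.38 without it, a ratio of 1.06 (0.967 to 1.17). For Slc7a2 the ratio was 0.736 (0.520 to 1.04) and for Asl it was close to 1 (0.622 to 1.63). Ass1 had 9 UMIs beside Nos2 and 1 without it, a ratio of 6.07 (0.842 to 266). A difference of these cofactor and substrate genes between the cells was thus not detectable at this depth. Of 4 reference genes, Icam1, an adhesion molecule gene that responds to IL-1, had a ratio of 2.19 (1.97 to 2.42), and Gbp2, a guanylate-binding protein gene that responds to IFN-γ, 1.88 (1.79 to 1.97). Irf1, the gene of an interferon-induced transcription factor, had a ratio of 1.18 (1.07 to 1.30), and Nfkbia, the gene of an NF-κB inhibitor, 1.15 (1.07 to 1.24).

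The IL-1β library gave close values for Gch1 and Icam1. With 255 β-like cells with and 900 without Nos2, the ratio was 1.07 (0.973 to 1.18) for Gch1 and 2.48 (2.12 to 2.90) for Icam1. Slc7a2 in α-like cells of the combination was lower beside Nos2, with 3 UMIs in 46 cells against 34 in 124, a ratio of 0.238 (0.0467 to 0.756). These intervals treat UMIs as independent, and the cells of each set share 1 library.

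**Figure D4:**
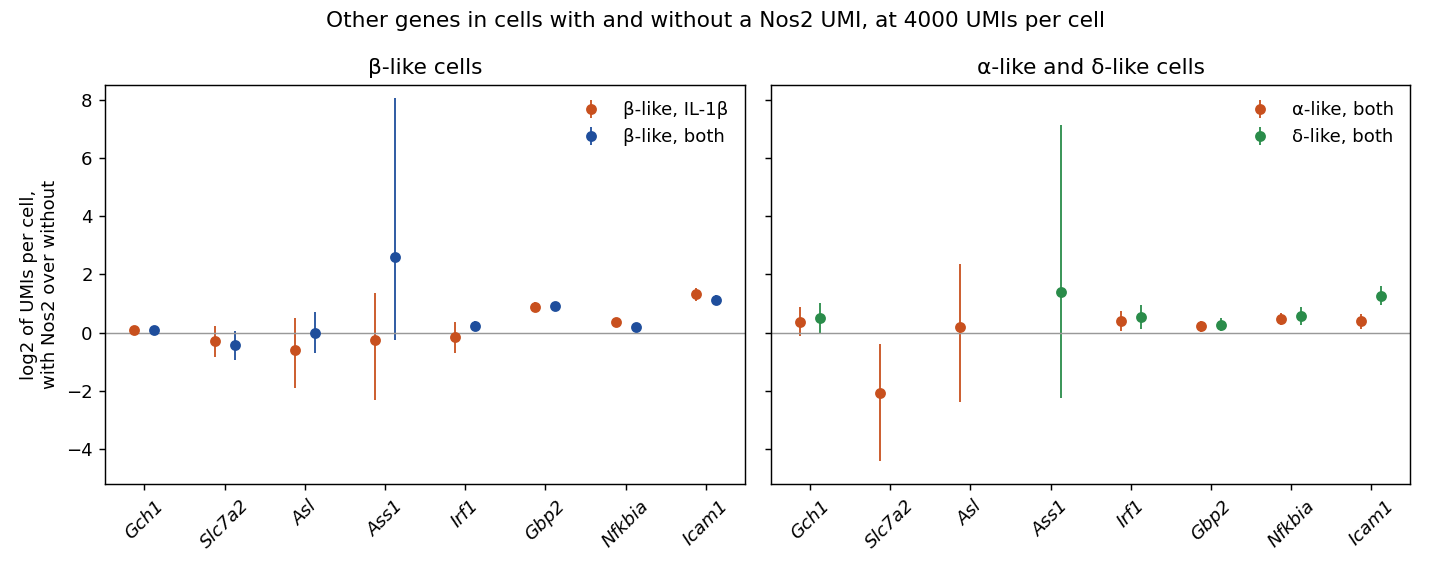
log2 ratio of UMIs per cell in cells with a Nos2 UMI to cells without, at 4000 UMIs per cell, with exact 95% intervals that cover counting error only, for members and 4 reference genes. In β-like cells Gch1 lies near 0 in both libraries and Icam1 above it (ratio 2.19 with both cytokines), while Slc7a2 in α-like cells of the combination lies below 0.

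Neighbouring genes of these pathways were listed by role and counted in β-like cells. Of the 7 genes that make, recycle or regulate tetrahydrobiopterin beside Gch1, 6 were measured and 0 were past 2-fold in each treated library against untreated. Their median log2 ratio was 0.29 with IFN-γ, −0.02 with IL-1β and −0.60 with the combination, against 0.31, 0.36 and 0.01 over all genes. Pts, which encodes the enzyme after GTP cyclohydrolase in the pathway, was at 98.1 CPM without cytokine, 112 CPM with IFN-γ, 92.6 CPM with IL-1β and 58.8 CPM with the combination. Spr, the gene of the last enzyme of the pathway, was at 26.2, 25.8, 26.6 and 24.7 CPM in this order. Gch1 and Spr thus stayed close to their untreated levels with the combination, and Pts was at 0.599-fold (0.554 to 0.648). Gchfr, the gene of the feedback regulator of GTP cyclohydrolase, had 4 to 6 UMIs per library.

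In the libraries with IL-1β, another arginine transporter gene differed in the opposite direction to Slc7a2. Slc7a1 (CAT1) in β-like cells was at 19.5 CPM without cytokine, 35.8 CPM with IFN-γ, 66.9 CPM with IL-1β and 50.9 CPM with the combination. The ratio to untreated was 3.43 (3.03 to 3.89) for IL-1β and 2.61 (2.31 to 2.95) for the combination. Slc7a2 had more UMIs than Slc7a1 in untreated cells, at 78.6 CPM, and fewer with the combination, at 25.8 CPM. With IFN-γ alone both genes were above untreated, with a ratio of 1.83 (1.61 to 2.09) for Slc7a1, although that of Slc7a2 was 0.992 with median-of-ratios size factors. Slc7a1 was also past 2-fold higher with IL-1β in α-like cells, at 2.72-fold (1.35 to 6.22), and in δ-like cells, at 2.69-fold (1.37 to 5.75).

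Of the 11 transporter genes listed, 7 were measured in β-like cells with IL-1β, of which 2 were past 2-fold higher and 0 lower, against 17.1% and 6.0% of all genes. With the combination 2 of 7 were higher and 2 lower, against 11.6% and 12% of genes, and with IFN-γ 0 of 8 were past 2-fold, against 5.84% and 0.651%. Slc3a2, the heavy chain of several amino acid transporters, was 2.17-fold and 2.57-fold above untreated with IL-1β and the combination, and 1.61-fold and 2.23-fold with hormone genes left out of the totals. Slc7a8 (LAT2), a neutral amino acid transporter gene, was 0.271-fold (0.232 to 0.315) and Slc25a29, a mitochondrial carrier gene for basic amino acids, 0.344-fold (0.265 to 0.442) of untreated with the combination. Without hormone genes, Slc7a8 was also past 2-fold lower with IL-1β, at 0.382-fold, and Slc25a29 with IFN-γ, at 0.406-fold.

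Several genes of the ornithine and polyamine branch were higher with IL-1β. Odc1, the ornithine decarboxylase that starts polyamine synthesis, was at 37.3 CPM without cytokine, 57.6 CPM with IFN-γ, 279 CPM with IL-1β and 178 CPM with the combination, a ratio of 7.48 (6.90 to 8.11) for IL-1β. Smox, which oxidizes spermine, was 10.3-fold (7.62 to 14.3) above untreated with IL-1β and 9.31-fold (6.91 to 12.8) with the combination. Sat1, which acetylates polyamines, was 4.499-fold and 5.46-fold above untreated, and Azin1, which protects ornithine decarboxylase from its antizyme, 2.80-fold and 2.17-fold. Oat, the ornithine aminotransferase, was 2.70-fold (1.45 to 5.13) above untreated with IL-1β and 2.25-fold (1.23 to 4.21) with IFN-γ, from 19 untreated UMIs, but its ratio was 1.12 (0.545 to 2.27) with the combination. Without hormone genes in the totals, Oat was 1.998-fold above untreated with IL-1β and 1.81-fold with IFN-γ, and Azin1 2.07-fold with IL-1β and 1.88-fold with the combination, so that 3 of these 4 values were no longer past 2-fold.

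Others of this list were lower. Azin2, related to Azin1, was 0.405-fold (0.233 to 0.671) of untreated with IL-1β and 0.491-fold (0.322 to 0.733) with the combination. Gatm, which uses arginine to make a creatine precursor, was 0.378-fold (0.318 to 0.448) of untreated with the combination. Of 16 measured genes, 1 was higher and 0 lower with IFN-γ, 5 higher and 1 lower with IL-1β and 4 higher and 2 lower with the combination. The shares over all genes were 5.84% and 0.651%, 17.1% and 6.0%, and 11.6% and 12%, so that the counts with IFN-γ and the lower ones with IL-1β and with the combination were near the background. Without hormone genes, 0 were higher with IFN-γ, 4 with IL-1β and 3 with the combination, against 3.26%, 8.02% and 9.31% of all genes on that scale, and 0, 1 and 3 were lower, against 1.81%, 12% and 16.4%. The medians of the list were 0.28, 0.09 and −0.07 in log2, against 0.31, 0.36 and 0.01 over all genes.

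In α-like cells 13 genes of this list were measured with IL-1β, of which 3 were past 2-fold higher and 0 lower, against 8.94% and 7.57% of genes. They were Odc1, at 5.18-fold (3.99 to 6.83), Sat1, at 2.96-fold (2.17 to 4.11), and Smox, at 3.30-fold (1.65 to 7.48) of untreated. With the combination 3 of 13 were higher and 4 lower, against 10.1% and 10.7%. In δ-like cells 1 of 9 was higher and 1 lower with IL-1β, against 10.9% and 6.51% of genes, and 1 higher and 2 lower with the combination, against 13.0% and 10.7%, so that the counts of higher genes were near the background. Odc1 was 2.44-fold (1.84 to 3.27) above untreated with IL-1β there, and Sat1 3.48-fold (2.51 to 4.90) with the combination. All treated libraries share the untreated library in these ratios.

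Of the listed genes that act on nitric oxide or its products, 12 were measured in β-like cells. None was past 2-fold with IFN-γ (0 higher and 0 lower), 3 were higher and 0 lower with IL-1β, and 4 were higher and 2 lower with the combination, beside 5.84% and 0.651% of all genes with IFN-γ, 17.1% and 6.0% with IL-1β and 11.6% and 12% with the combination. Without hormone genes in the totals, 2 were higher and 2 lower with IL-1β, against 8.02% and 12% of all genes on that scale, and 0 higher and 3 lower with the combination, against 9.31% and 16.4%. Hmox1 (heme oxygenase) was at 46.8 CPM without cytokine, 30.9 CPM with IFN-γ, 148 CPM with IL-1β and 104 CPM with the combination. Gsr (glutathione reductase) was 3.19-fold and 2.15-fold above untreated with IL-1β and the combination, Txnrd1 (thioredoxin reductase) 2.51-fold and 2.15-fold, and Txn1, the gene of its substrate thioredoxin, 2.23-fold with the combination. The values with the combination were 1.93-fold for Hmox1, 1.87-fold for Gsr, 1.86-fold for Txnrd1 and 1.94-fold for Txn1 without hormone genes, and Txnrd1 with IL-1β was then 1.85-fold. Gucy1b1, a subunit of the guanylate cyclase that senses nitric oxide, and Prkg2, a cGMP-dependent kinase gene, were 0.270-fold (0.108 to 0.588) and 0.271-fold (0.122 to 0.545) of untreated with the combination, from 8 and 10 UMIs.

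Among 11 other nitric oxide synthase genes and regulators, Nostrin, whose product binds the endothelial synthase, was the single gene past 2-fold. It was 7.77-fold (5.76 to 10.6) above untreated with IL-1β (1 of 6 measured) and 3.11-fold (2.26 to 4.33) with the combination (1 of 7), and 0 of 7 were past 2-fold with IFN-γ. Over all genes, 17.1% were higher and 6.0% lower with IL-1β, 11.6% and 12% with the combination and 5.84% and 0.651% with IFN-γ, so that the counts of higher genes were near the background. Nos1 and Nos3, the neuronal and endothelial synthases, had 2 and 20 UMIs in untreated β-like cells and 4 and 6 with IL-1β.

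**Figure D5:**
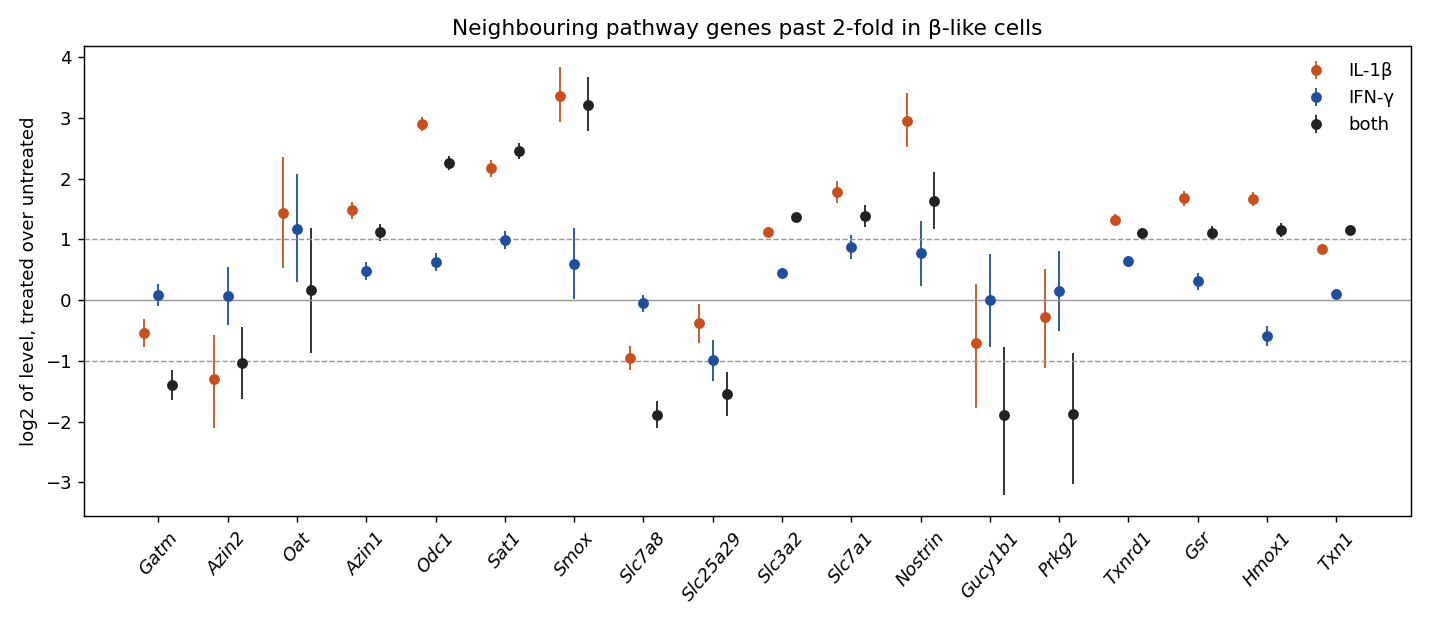
log2 ratio of the level in each treated library to the untreated library in β-like cells for the 18 neighbouring pathway genes past 2-fold in any treated library, grouped by list, with exact 95% intervals that cover counting error only; dashed lines mark 2-fold. Odc1, Sat1 and Smox lie above the upper line with IL-1β and with both cytokines, with 10.3-fold for Smox with IL-1β.

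For each member with 200 or more UMIs, the genes with the most similar profile over 6 classes and 4 libraries were listed as a description (24 values of log2(CPM + 1), Pearson's r, 9157 genes compared). The profile of Nos2 was closest to Gm16685 (0.937), Lrg1 (0.882) and Ltf (0.882). That of Gch1 was closest to Efna5 (0.953), Igsf9b (0.943) and Fam19a1 (0.938) and that of Slc7a2 to Sv2b (0.875), Tmsb15b2 (0.875) and Skap1 (0.872). Ass1 was closest to Apip (0.831), Anxa4 (0.818) and Ctsh (0.811) and Asl to Rps6ka4 (0.853), Ccdc22 (0.838) and Agps (0.831). The 24 values share libraries and depth.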

How the data were processed

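According to the labels and the submitters' processing notes, the authors used Cell Ranger with mm10, and the deposited matrices hold unnormalized UMI counts per gene and barcode (software version 3.0.0 in their headers). The labels and the study's methods name different versions of the reagent kit, and whether counting used strand was not stated. The libraries held 3486 untreated barcodes, 3694 with IFN-γ, 2911 with IL-1β and 2480 with both, with 50731370, 31209339, 20056630 and 25716645 UMIs. The upper limit of 4000 genes removed 843, 345, 146 and 222 cells, respectively.

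A cell entered an endocrine class when its leading hormone (insulin, glucagon, somatostatin or pancreatic polypeptide) took at least 2% of UMIs and at least 2 times as much as the next, and otherwise the mixed class. Near these limits, 264 cells had a leading share of 1 to 4% and 274 a ratio of 1.5 to 3. The 592 cells under 2% were clustered without members or hormones (scanpy 1.11.5, igraph 0.11.9, Louvain, resolution 1) and named where at least 3 markers of a type were found in at least 10% of cells, and 110 stayed unnamed. Ratios have exact conditional and shares exact Clopper-Pearson 95% intervals (scipy 1.17.1), and a count of 0 is given with the limit of 3 counts. Thinning left out 604 cells with under 4000 UMIs. No doublets were removed except in an alternative. The code was tested on simulated data.

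The members and lists were chosen with earlier results of these data known. The genes named are the members, of which 2 are not reported here, the pathway genes past 2-fold in β-like cells, 4 reference genes and the 3 most similar profiles, and Pts, Spr, Gchfr, Nos1 and Nos3 were added for their roles. Positions are those of GENCODE M21, which held 30934 of the 31053 identifiers. RefSeq promoters were found for 2 members, Ass1 and Gch1, of which the window of Ass1 runs into the annotated gene.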

Additional observations from a re-analysis of the deposited data

Results flagged for a closer look

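Results are given here where the ratio of a gene between the same libraries, with its interval, lay on opposite sides of 1 in different classes. The difference between classes was not tested. For Gch1 with IFN-γ against untreated, the ratio was 1.11 in β-like, 0.678 in α-like and 0.680 in δ-like cells. The β-like ratio was 0.896 (0.864 to 0.929) without hormone genes in the totals and 0.881 with median-of-ratios size factors, the same side of 1 as in the other classes. For Slc7a2 with IL-1β, it was 14.3 in mesenchymal-like against 0.575 in β-like and 0.621 in α-like cells. With both cytokines the ratio of Slc7a2 was 11.7 in mesenchymal-like against 0.328 in β-like, 0.353 in α-like and 0.304 in Ppy-led cells. The mesenchymal-like ratios rest on 3 UMIs in the untreated class.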

How the results depend on the processing

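The alternatives lifted the upper gene limit, set the mitochondrial limit to 20%, left hormone genes out of the totals, used median-of-ratios size factors, thinned cells to 4000 UMIs, took classes from Louvain clusters, set the hormone limits to 5% and a ratio of 5, or removed 75 cells called as doublets by Scrublet. Of 384 alternative values of 48 member ratios, 375 stayed on the same side of 2-fold and 25 changed direction, and 111 of the 112 for ratios past 2-fold stayed past it. Without hormone genes in the totals, the β-like ratios were 1.15 for Gch1 with IL-1β (1.55 as reported), 0.285 for Slc7a2 with the combination, 5.59 for Nos2 and 0.833 for Gch1 between the combination and IL-1β. With size factors, Gch1 with IL-1β was at 1.18, and the last pair at 6.00 and 0.894. Slc7a2 and Asl with IL-1β passed 2-fold lower under these scalings, at 0.425 and 0.478 without hormone genes. With Louvain classes, Nos2 in δ-like cells was 6.17-fold higher with the combination than with IL-1β. Without the upper gene limit, Ass1 in β-like cells with the combination was at 0.510. Scalings of the pathway lists and of the member counts, the levels of Gch1 without hormone UMIs and the level without 1 mesenchymal-like cell were added after seeing the data. With every gene that had a UMI, 6725 genes in place of 2712 were past 2-fold with IL-1β, 4465 in place of 767 with IFN-γ and 6999 in place of 2799 with the combination, since genes with few UMIs enter. Without replicates no library could be left out. No paired analysis was possible because each condition had 1 library. Untreated classes other than β-like and α-like held at most 47 cells, with 19 mesenchymal-like, 13 ductal-like, 6 acinar-like and 0 Schwann-like cells, which limits the precision of their levels.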
